A study of Mus musculus with 6 samples.

Results

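The genes described here encode the mitochondrial respiratory chain and ATP synthase, and were read in PiZ and wild-type mouse liver. Members were chosen by symbol alone, as genes whose names begin with Nduf, Uqcr, Atp5 or Cox4 to Cox8, together with Sdha, Sdhb, Sdhc, Sdhd, Cyc1 and Cycs. This gave 86 of the 12393 genes that had a probe set of their own on the array. They comprised 33 subunits of complex I, 4 of complex II, 9 of complex III, 16 of complex IV, 17 of complex V, 5 complex I assembly factors, the electron carrier cytochrome c and the related protein Cox7a2l. Ndufa4 was counted with complex IV, where it is now placed. Of 98 protein-coding mouse genes that match the symbols in RefSeq, 12 had no probe set naming them alone and were not analysed here. The 13 respiratory genes of the mitochondrial genome were likewise not analysed here.

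Whole liver RNA was hybridised to one-colour Affymetrix arrays, with 1 array for each of 3 PiZ mice and 3 wild-type mice. The PiZ genotype is a transgene with the human Z variant of alpha-1 antitrypsin, a secreted protease inhibitor that hepatocytes retain in the endoplasmic reticulum in its Z form. All animals were 6 weeks old and on a C57BL/6 background, and no treatment was given in the labels. The sources used here do not give the promoter of the transgene or how many lines were used. The single comparison asks how liver expression of these genes differs when the transgene is present. Values are log2 intensities, and a difference is PiZ minus wild-type on that scale. Standard errors (SE) and adjusted p-values come from limma with n = 3 per group unless arrays are said to be left out, and a gene passed at an adjusted p under 0.05 over all 12393 genes.

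The respiratory chain sits in the inner mitochondrial membrane. Complex I takes electrons from NADH and complex II takes them from succinate, and both pass them to coenzyme Q. Complex III moves them on to cytochrome c, and complex IV hands them to oxygen. The protons pumped on the way drive complex V, the ATP synthase. Hepatocytes are rich in mitochondria and use the chain to oxidise fatty acids and amino acids and to power glucose and urea synthesis.

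The arrays were liver-like in both groups, with the mean of 5 hepatocyte markers at 14.37 to 14.56 in PiZ and 14.62 to 14.64 in wild-type. RNA quality differed within PiZ. The array reads Gapdh at its 3′ and its 5′ end, and a wide gap is a known sign of shortened RNA. This log2 gap was 1.99, 4.39 and 4.01 in PiZ replicates 1, 2 and 3, and 1.49 to 2.06 in wild-type. Beta-actin gave gaps of 3.02, 4.89 and 4.66 in PiZ against 2.90 to 3.34 in wild-type. Spiked hybridization controls exceeded their wild-type mean by 0.20, 1.06 and 0.97 in the same PiZ arrays. PiZ replicate 1 was therefore set beside replicates 2 and 3 throughout, and the part of RNA quality in the results was not tested beyond the values given with them. In bulk liver, fewer cells of a type and less RNA per cell cannot be told apart.

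Respiratory chain genes read lower in PiZ more often than higher. Of the 86 members 21 fell (24.4%) and 5 rose (5.81%), against 12.3% lower and 11.3% higher, and 23.6% in all, over the 12393 genes. The members' median difference was -0.32, beside 0.08 for all genes. Most members are bright, and bright genes as a whole read lower in PiZ. Of the 78 members above the median brightness of all genes, 19 fell (24.4%) and 4 rose (5.13%), beside 19.8% and 13.8% (33.6% in all) of the 6196 genes above it, whose median difference was -0.08. The members are brighter still, with a median at the 96.5 percentile of brightness, so these genes are an incomplete match. All 3 PiZ arrays lay below all 3 wild-type arrays for 45 members (52.3%), against 19.9% of all genes and 31.3% of the bright ones. All 3 lay above for 5 members (5.81%), against 24.9% of all genes.

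The complexes differed in how far their medians lay below zero. The counts below stand beside 12.3% lower and 11.3% higher over all genes. Complex II had the lowest median difference, at -0.76, with 2 of 4 subunits lower and 0 higher. Complex V followed at -0.43, with 6 of 17 lower and 1 higher, and complex III at -0.30, with 3 of 9 lower and 0 higher. Complex I had a median of -0.21, with 4 of 33 lower (12.1%) and 3 higher (9.09%), near the shares of all genes. Complex IV lay close to zero at -0.05, with 4 of 16 lower and 1 higher. This last median depended on the processing. It was -0.25 without dim genes, -0.28 with the mean of probe sets, -0.15 by cyclic loess and -0.14 with quantile normalization repeated, in each case below complex I at -0.18, -0.26, -0.087 and -0.10. It was -0.23 without x or s suffixes, and 0.11 after centring on reference genes. The difference between complexes was not tested. The plot of each member's difference by complex shows these values and the scatter within each complex.

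**Figure D1:**
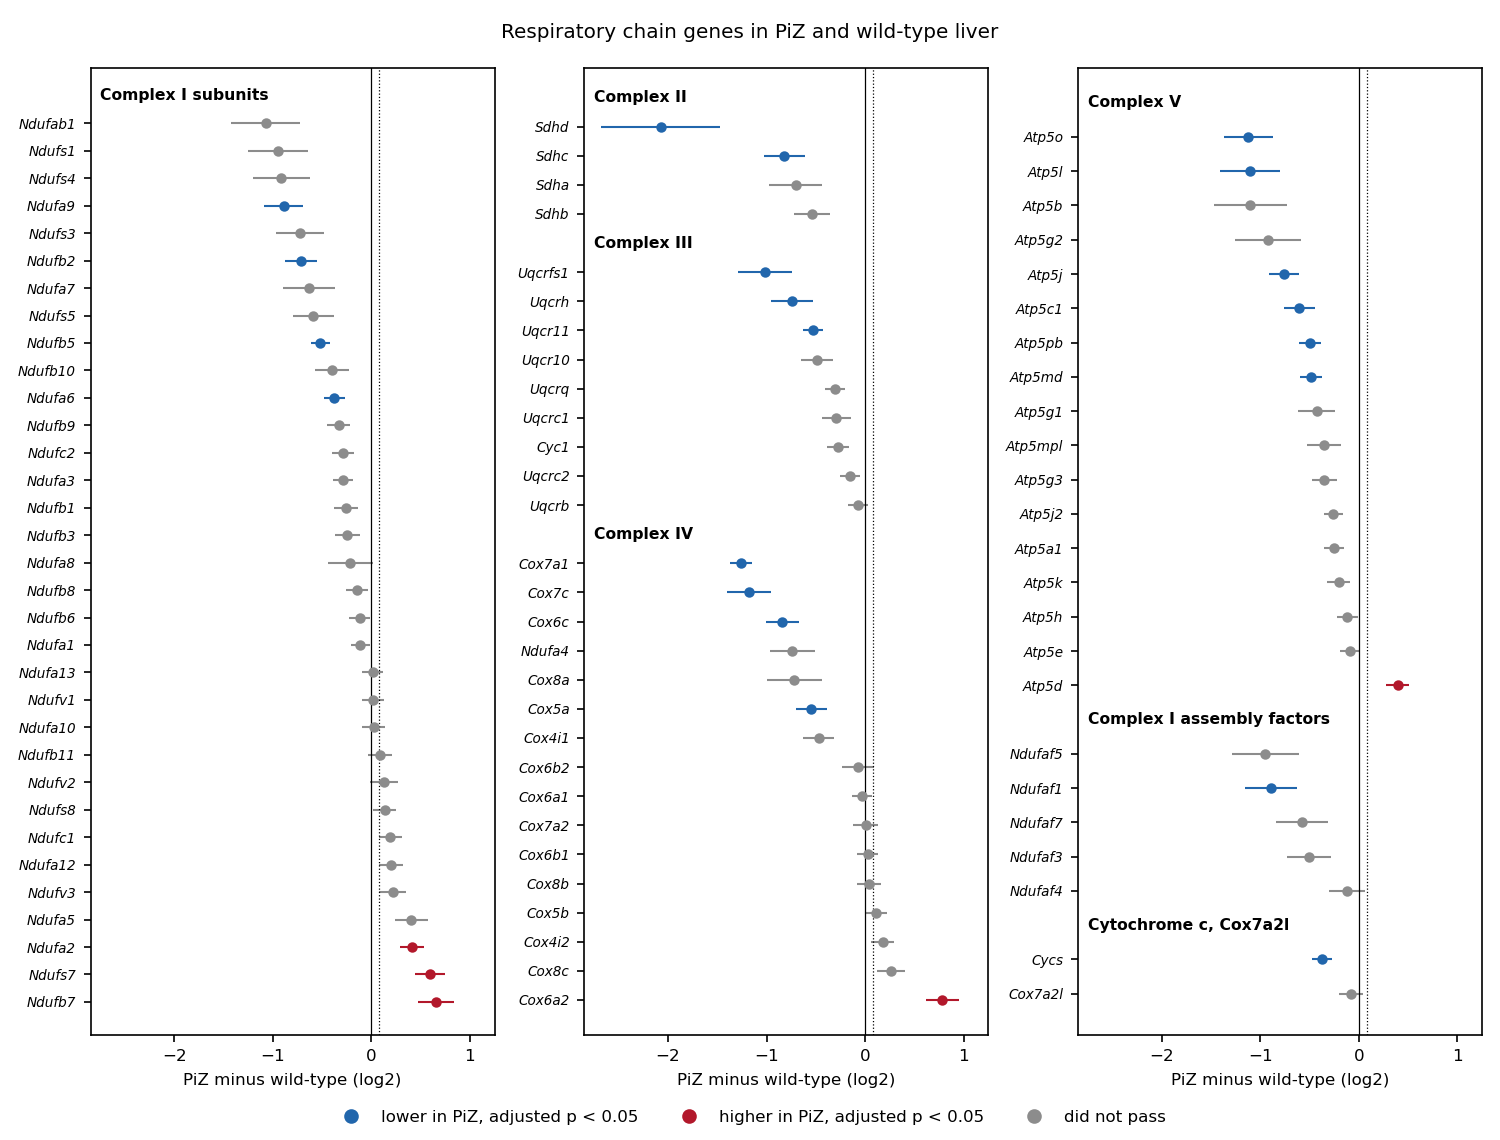
Difference in log2 intensity (PiZ minus wild-type, x axis) of each of the 86 members, ordered by complex, with bars for the standard error from limma, blue points for genes lower and red for genes higher past the threshold, and a dotted line at the median of all genes. Most points lie left of zero, and the lowest is Sdhd at -2.07.

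The lower values were deepest in the PiZ arrays with the wide 3′ to 5′ gap. Complex II had a median difference from the wild-type mean of -0.21 in PiZ replicate 1, -1.15 in replicate 2 and -0.97 in replicate 3. For complex V the medians were -0.18, -0.59 and -0.54, and for complex III they were -0.20, -0.54 and -0.41. Complex I gave -0.12, -0.25 and -0.14, and complex IV gave -0.04, -0.14 and -0.16. Each of the 5 complexes thus had a median below zero in every PiZ array, and a shallower one in replicate 1. In that array 55 of 86 members read below all wild-type arrays, beside 35.6% of all genes and 45.4% of those above the median brightness.

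**Figure D2:**
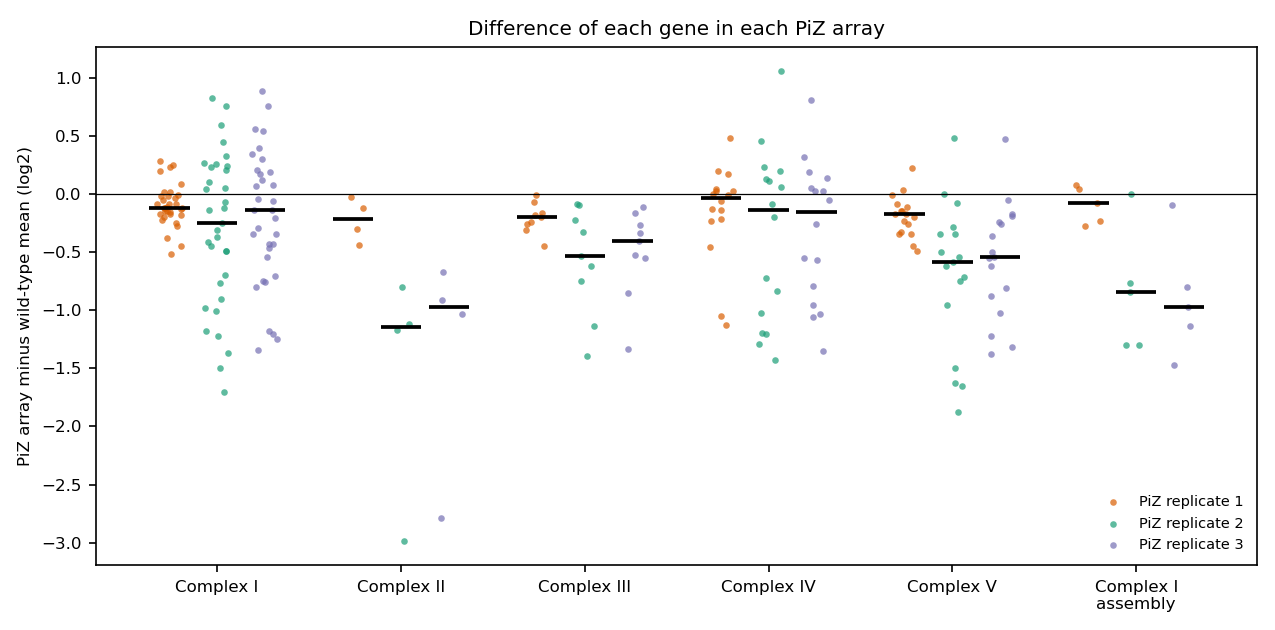
Each point is 1 member's log2 intensity in 1 PiZ array minus its wild-type mean (y axis), by complex and PiZ replicate, with a line at the median. For complex II the medians are -0.21, -1.15 and -0.97 in replicates 1, 2 and 3, and replicate 1 is the shallowest in each complex.

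The count of changed members depended on single arrays. PiZ replicate 1 alone was set against wild-type under the assumption that it varies as the wild-type arrays do, since 1 array has no spread of its own. This describes that array and gave 7 members lower and 0 higher (9.8% and 8.83% of all genes, 18.6% together). Without that array 51 were lower and 10 higher (22.4% and 27.4% of all genes, 49.8% together). Leaving out PiZ replicate 2 left 7 lower and 1 higher, beside 935 and 852 of all 12393 genes. Leaving out PiZ replicate 3 left 4 lower and 0 higher, beside 739 and 703 of all genes. Without wild-type replicates 1, 2 and 3 in turn, 3, 2 and 1 members were lower and 0, 1 and 0 higher. Over all genes 580, 662 and 550 were lower and 525, 600 and 518 higher. With PiZ replicate 2 or 3 or a wild-type array left out, the share of members lower was near or under that of all genes. Cox7a1 passed whichever of the 6 arrays was left out, and Cox7c missed in 1 case, without wild-type replicate 3 (adjusted p = 0.0508). Of the other 24 changed members, 18 passed only when PiZ replicate 1 was the array left out. With the mean 3′ to 5′ gap as a covariate 3 members were lower, Cox7a1, Ndufb5 and Uqcr11, and 0 were higher. Over all genes 947 were lower and 867 higher with that covariate, so the share of members lower was under that of all genes. The 7 called lower in PiZ replicate 1 alone, with their differences in that array, were Cox7a1 (-1.13), Ndufb5 (-0.51), Atp5o (-0.49), Cox6c (-0.46), Ndufa9 (-0.45), Atp5j (-0.45) and Uqcr11 (-0.44).

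Promoter sequence was set beside these values because nuclear respiratory genes are classically linked to a small group of transcription factors, NRF1, GABPA (also called NRF-2), YY1, ERRA and CREB. A RefSeq promoter window (build GRCm38.p6) was found for 71 of the 86 members, and its 250 bases before the start were searched on both strands. Letters searched were GCGCA, any base and GCGC for NRF1, CCGGAAG for GABPA, AAGATGGCG for YY1, AAGGTCA for ERRA and TGACGTCA for the cAMP response element (CRE) that CREB binds. No letter run is contained in another. The GABPA letters stood in 13 of 71 members (18.3%), in 12.9% of the array's genes with a window and in 7.83% of all mouse genes with one. NRF1 letters stood in 11 members (15.5%), beside 7.63% and 4.23%. Among members that fell, 6 of 19 with a window (31.6%) held the GABPA letters and 2 held those of NRF1. Among members that did not pass, 6 of 49 (12.2%) held the GABPA letters and 9 (18.4%) those of NRF1. Among those that rose, 1 of 3 held the GABPA letters. The 6 that fell and held GABPA letters were Ndufaf1, Sdhd, Uqcrh, Uqcr11, Atp5l and Atp5j. CRE letters stood in 4 of 71 members (5.63%), 3 of them among the 19 that fell, beside 2.53% of array genes. YY1 letters stood in 1 member and ERRA letters in 4. These are matches of letters and not measured binding. The stretches below are shown because they lie before the starts of members whose falls are described next, each on the minus strand, read 5′ to 3′, with the matched letters in capitals: the GABPA letters, in either orientation, before Sdhd (chr9:50603850-50603900), Atp5j (chr16:84835026-84835055) and Uqcrh (chr4:116075071-116075170), and the CRE letters before Cycs (chr6:50566570-50566759).
Sdhd: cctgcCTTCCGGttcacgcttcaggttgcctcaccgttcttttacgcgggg
Atp5j: gagtcttagctgagggacCCGGAAGcactt
Uqcrh: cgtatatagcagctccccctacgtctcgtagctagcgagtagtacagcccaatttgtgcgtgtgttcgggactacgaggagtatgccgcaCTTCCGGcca
Cycs: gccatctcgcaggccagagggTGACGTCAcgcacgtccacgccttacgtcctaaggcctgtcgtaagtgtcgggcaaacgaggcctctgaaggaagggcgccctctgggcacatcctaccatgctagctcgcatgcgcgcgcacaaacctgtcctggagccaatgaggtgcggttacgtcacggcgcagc

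Complex I is built from a core that carries the electrons and a larger shell of accessory subunits. Of 6 measured core subunits encoded in the nucleus, 1 rose (16.7%) and 0 fell, beside 11.3% higher and 12.3% lower over all genes. Their median difference was 0.07. In PiZ replicates 1, 2 and 3 the core median was -0.12, 0.17 and 0.13. The one that rose was Ndufs7, which holds the last iron-sulphur cluster before coenzyme Q. It read 11.93, 12.41 and 12.40 in PiZ, against 11.57, 11.75 and 11.62 in wild-type. All PiZ arrays were above all wild-type arrays, and the difference was 0.60 (SE 0.15, adjusted p = 0.0304). A further probe set of Ndufs7 differed by -0.21 and did not pass. Ndufs1, the largest core subunit with several iron-sulphur clusters, read 10.31, 8.99 and 9.31 in PiZ, against 10.47, 10.41 and 10.59 in wild-type. Here the PiZ arrays lay below the wild-type ones without overlap, but replicate 1 was close to them, and the difference of -0.95 (SE 0.30, adjusted p = 0.0575) did not pass. Ndufs3 showed the same arrangement, with a difference of -0.72 (adjusted p = 0.068). Ndufv1, which binds NADH and its flavin, differed by 0.02 (SE 0.11, adjusted p = 0.92), Ndufv2 by 0.13 (adjusted p = 0.517) and Ndufs8 by 0.14 (adjusted p = 0.396), with overlapping groups. Ndufs8 had 6 probe sets, whose differences ran from -0.81 to 0.18, and 2 of them passed as lower. The lowest probe set of Ndufv1 differed by -0.62 and that of Ndufv2 by -0.68, neither past the threshold.

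Among 27 accessory subunits of complex I, 4 fell (14.8%) and 2 rose (7.41%), near the 12.3% lower and 11.3% higher of all genes. Their median difference was -0.24. In PiZ replicates 1, 2 and 3 the accessory median was -0.11, -0.31 and -0.21. In replicate 1 it was thus close to the core median of -0.12. Ndufa9, a matrix arm subunit that binds NADPH and lies near the coenzyme Q site, read 10.97, 10.44 and 10.17 in PiZ, against 11.38, 11.42 and 11.46 in wild-type. Every PiZ value was under every wild-type value, and the difference was -0.89 (SE 0.19, adjusted p = 0.0175). Ndufb2, of the membrane arm, read 11.52, 10.89 and 11.15 in PiZ, against 11.84, 11.89 and 11.96 in wild-type, a difference of -0.71 (SE 0.17, adjusted p = 0.0214). Ndufb5, another membrane arm subunit, was even across the PiZ arrays at 11.33, 11.35 and 11.30, against 11.81, 11.89 and 11.82 in wild-type. On this probe set PiZ replicate 1 did not stand nearer to wild-type than the others did. The difference was -0.52 (SE 0.10, adjusted p = 0.0108), and a further probe set differed by -1.76 and also passed. That further set was not even, at 10.91, 9.17 and 9.51 in PiZ against 11.64, 11.51 and 11.72 in wild-type. There PiZ replicate 1 was nearest to wild-type. Ndufa6, of the matrix arm, differed by -0.38 (SE 0.11, adjusted p = 0.0409).

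Ndufb7 and Ndufa2 went the other way. Ndufb7, on the intermembrane face of the membrane arm, read 12.25, 12.83 and 12.89 in PiZ, against 11.89, 12.10 and 12.01 in wild-type. It rose by 0.65 (SE 0.18, adjusted p = 0.0378), and its other probe set differed by 0.22 without passing. Ndufa2, of the matrix arm, read 11.75, 11.96 and 12.07 in PiZ, against 11.52, 11.56 and 11.46 in wild-type, a rise of 0.41 (SE 0.12, adjusted p = 0.043). For both genes the PiZ arrays were all above wild-type, with replicate 1 the lowest of them. Differences of the other 21 accessory subunits ran from -1.07 for Ndufab1 (adjusted p = 0.061) to 0.41 for Ndufa5 (adjusted p = 0.11). Ndufab1 is also the mitochondrial acyl carrier protein. The second probe set of Ndufa5 differed by -0.22 and did not pass. Further probe sets of Ndufa7, Ndufb6, Ndufb11 and Ndufc2 passed as lower, and that of Ndufa10 as higher.

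The 5 Nduf assembly factors help to build complex I but are not part of it. Ndufaf1, which acts on the membrane arm, read 9.37, 8.30 and 8.47 in PiZ, against 9.67, 9.56 and 9.58 in wild-type. It fell by 0.89 (SE 0.26, adjusted p = 0.0438), with no overlap between groups. Ndufaf5 differed by -0.95 (SE 0.34, adjusted p = 0.0765), with PiZ values of 6.66, 5.44 and 5.27 against 6.89, 6.70 and 6.63 in wild-type, and its PiZ replicate 1 overlapped the wild-type range. Ndufaf7, Ndufaf3 and Ndufaf4 differed by -0.58, -0.51 and -0.12 and did not pass. On its other, dimmer probe set, Ndufaf4 differed by -1.48 and passed as lower, with all PiZ arrays below all wild-type arrays. The median of the 5 was -0.58, and it was -0.08 in PiZ replicate 1 alone and -0.91 in the mean of replicates 2 and 3.

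Complex II is the one complex encoded wholly in the nucleus, and it also serves the citric acid cycle as succinate dehydrogenase. Its membrane anchors Sdhc and Sdhd fell. Sdhd read 10.87, 8.32 and 8.52 in PiZ, against 11.44, 11.07 and 11.42 in wild-type. Replicate 1 sat just under the lowest wild-type array and the other PiZ arrays far below. The difference of -2.07 (SE 0.61, adjusted p = 0.0445), 4.21-fold lower in PiZ, was the lowest among the 86 members. Its further probe set read 7.63, 7.55 and 7.53 in PiZ, against 8.10, 8.03 and 8.08 in wild-type, an even and smaller difference of -0.50. With adjustment over all 20380 single-gene probe sets this further set passed (adjusted p = 0.0151), and the brightest missed (adjusted p = 0.0516). Sdhd is the gene whose start is preceded by the GABPA letters in the first stretch printed above. Sdhc read 10.09, 9.28 and 9.36 in PiZ, against 10.37, 10.40 and 10.41 in wild-type, a difference of -0.82 (SE 0.21, adjusted p = 0.0303).

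The catalytic subunits of complex II did not pass. Sdha, the flavoprotein that oxidises succinate, read 11.77, 10.63 and 10.89 in PiZ, against 11.85, 11.72 and 11.83 in wild-type. PiZ replicate 1 lay within the wild-type range, and the difference was -0.70 (SE 0.27, adjusted p = 0.0934). Sdhb, the iron-sulphur subunit, read 11.94, 11.27 and 11.39 in PiZ, against 12.02, 12.01 and 12.18 in wild-type, a difference of -0.53 (SE 0.18, adjusted p = 0.0694). In PiZ replicate 1 the differences from the wild-type mean were -0.44 for Sdhd, -0.30 for Sdhc, -0.13 for Sdhb and -0.03 for Sdha. Without that array all 4 passed as lower, with differences from -2.89 for Sdhd to -0.74 for Sdhb.

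**Figure D3:**
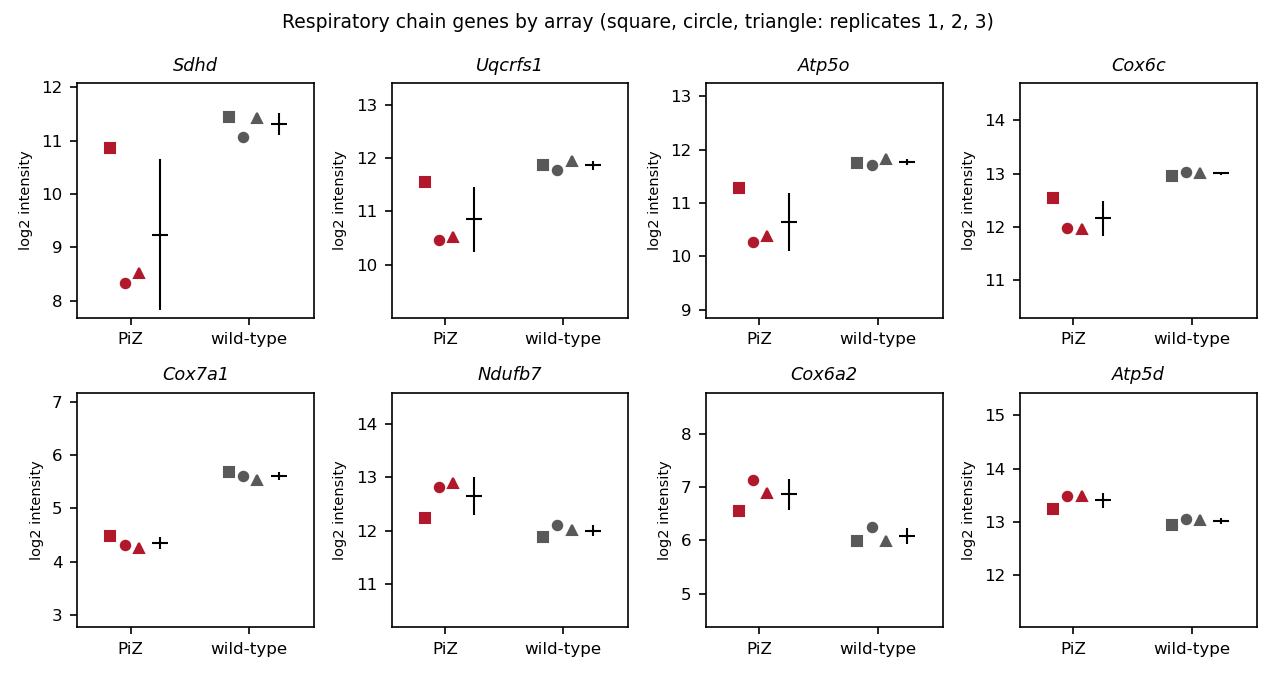
Log2 intensity (y axis) of selected members in each array, PiZ left and wild-type right, with squares, circles and triangles for replicates 1, 2 and 3 and a bar for the mean and SD. Sdhd reads 10.87, 8.32 and 8.52 in PiZ, and Cox7a1 is even across PiZ at 4.48, 4.32 and 4.25.

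All 9 measured subunits of complex III had differences below zero, and 3 passed. Uqcrfs1, the Rieske iron-sulphur protein that takes the first electron from coenzyme Q, read 11.56, 10.47 and 10.53 in PiZ, against 11.87, 11.78 and 11.95 in wild-type. PiZ replicate 1 stood between the other PiZ arrays and wild-type, and the difference was -1.01 (SE 0.27, adjusted p = 0.0355). Uqcrh, the hinge protein next to cytochrome c1, read 11.48, 10.58 and 10.87 in PiZ, against 11.78, 11.62 and 11.75 in wild-type, a difference of -0.74 (SE 0.22, adjusted p = 0.0442). The GABPA letters before Uqcrh in the sequence shown lie close to the start. Uqcr11, a small membrane subunit, read 12.24, 12.07 and 12.16 in PiZ, against 12.62, 12.73 and 12.71 in wild-type. Its PiZ arrays lay close together, and the difference was -0.53 (SE 0.11, adjusted p = 0.0127).

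The catalytic and core subunits of complex III other than Uqcrfs1 did not pass. Cyc1, the haem-bearing cytochrome c1, differed by -0.27 (SE 0.11, adjusted p = 0.111), Uqcrc1 by -0.29 (SE 0.15, adjusted p = 0.191) and Uqcrc2 by -0.15 (SE 0.10, adjusted p = 0.305). A further probe set of Uqcrc2 differed by -0.60 and passed as lower. The small subunits Uqcr10 and Uqcrq differed by -0.49 (adjusted p = 0.066) and -0.30 (adjusted p = 0.0603), both with all PiZ arrays below wild-type. Uqcrb, which supports the coenzyme Q site, differed by -0.07 on its brightest probe set (adjusted p = 0.605) and by -1.13 on the other, which passed. The carrier Cycs, somatic cytochrome c, read 12.42, 12.33 and 12.28 in PiZ, against 12.70, 12.71 and 12.74 in wild-type. It fell by 0.37 on the log2 scale (SE 0.10, adjusted p = 0.0346), and its 3 probe sets ran from -0.96 to -0.13, all below zero.

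Complex IV holds several subunits that exist as paired forms, one widespread and one mainly in muscle or another tissue. The isoform genes Cox7a1 and Cox6a2, both known from heart and skeletal muscle, moved in opposite directions. Cox7a1 read 4.48, 4.32 and 4.25 in PiZ, against 5.68, 5.61 and 5.53 in wild-type. Values within each group lay close together and the groups lay apart, with a difference of -1.26 (SE 0.11, adjusted p = 0.000809), the one member still called at an adjusted p of 0.01. Cox6a2 read 6.56, 7.14 and 6.89 in PiZ, against 5.99, 6.25 and 5.99 in wild-type, a rise of 0.78 (SE 0.17, adjusted p = 0.0157). Both, like Cox7c, read below the median brightness of all genes, where no detection call was available and the lower quartile of probe sets was 4.35 to 4.46 in PiZ and 4.28 to 4.32 in wild-type. Of 7 striated muscle markers 1 rose, Myh7, and their mean level was 4.36 to 4.51 in PiZ and 4.23 to 4.30 in wild-type.

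The partner forms did not pass. Cox7a2, the widespread partner of Cox7a1, differed by 0.01 (adjusted p = 0.976), and the related supercomplex factor Cox7a2l by -0.08 (adjusted p = 0.635). Cox6a1, the partner of Cox6a2, differed by -0.03 (adjusted p = 0.837). In the Cox4 pair, Cox4i1 read 12.96, 12.38 and 12.54 in PiZ, against 13.06, 13.10 and 13.14 in wild-type, with no overlap and a difference of -0.47 (SE 0.16, adjusted p = 0.0659). Its counterpart Cox4i2, known from lung and from low oxygen, differed by 0.18 (adjusted p = 0.296). Cox6b1 and its testis form Cox6b2 differed by 0.03 and -0.07, and Cox8a and its muscle form Cox8b by -0.72 (adjusted p = 0.101) and 0.04 (adjusted p = 0.823). A further probe set of Cox6b1 differed by -0.75 and passed as lower.

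Among the other subunits of complex IV 3 fell. Cox6c read 12.55, 11.98 and 11.97 in PiZ, against 12.97, 13.03 and 13.02 in wild-type, a difference of -0.84 (SE 0.17, adjusted p = 0.013). Its other probe set differed by -0.22 and did not pass. Cox7c read 5.94, 5.56 and 5.93 in PiZ, against 6.54, 7.41 and 7.02 in wild-type. Its groups did not overlap, the difference was -1.18 (SE 0.23, adjusted p = 0.011), and its other probe set also passed at -1.33. That other set was dim, at 3.05, 3.11 and 3.02 in PiZ and 3.95, 4.69 and 4.52 in wild-type. Its PiZ values lay under the lower quartile of their arrays. Cox5a, which binds thyroid hormone metabolites, differed by -0.54 (SE 0.16, adjusted p = 0.0447). Ndufa4 differed by -0.74 (SE 0.23, adjusted p = 0.0519) and did not pass. Cox5b and the testis form Cox8c differed by 0.12 and 0.26.

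In complex V, 16 of 17 members had differences below zero, and the genes that fell belong to the stalks and the membrane part. The peripheral stalk, which holds the catalytic head still, had 3 of them. Atp5o, the oligomycin sensitivity protein at its top, read 11.27, 10.27 and 10.38 in PiZ, against 11.74, 11.72 and 11.83 in wild-type, a difference of -1.12 (SE 0.25, adjusted p = 0.0189). Atp5j, coupling factor F6, read 12.24, 11.73 and 11.81 in PiZ, against 12.64, 12.72 and 12.71 in wild-type. All PiZ arrays were below wild-type, and the difference was -0.76 (SE 0.15, adjusted p = 0.0126). Atp5pb, the b subunit of the same stalk, differed by -0.50 (SE 0.12, adjusted p = 0.0216). Of the membrane subunits, Atp5l, subunit g, which helps ATP synthase pair into dimers, read 11.95, 10.64 and 10.98 in PiZ, against 12.30, 12.24 and 12.34 in wild-type. Its difference of -1.10 (SE 0.30, adjusted p = 0.0357) came with PiZ replicate 1 nearest to wild-type. Atp5md, the small protein DAPIT, differed by -0.49 (SE 0.11, adjusted p = 0.0216).

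The rotor and head of complex V were mixed. Atp5c1, the central gamma shaft, differed by -0.61 (SE 0.16, adjusted p = 0.0321). Atp5d, the delta subunit at the foot of that shaft, read 13.24, 13.50 and 13.49 in PiZ, against 12.95, 13.05 and 13.05 in wild-type, a rise of 0.39 (SE 0.12, adjusted p = 0.0452). It was the only complex V member above wild-type in all PiZ arrays. Atp5b, the catalytic beta subunit, read 12.41, 10.73 and 11.39 in PiZ, against 12.64, 12.50 and 12.70 in wild-type. The groups did not overlap, but the PiZ arrays spread widely, and the difference of -1.10 (SE 0.37, adjusted p = 0.0653) did not pass. Atp5a1, the alpha subunit, differed by -0.25 (SE 0.10, adjusted p = 0.112), while 3 probe sets gave it differences between -1.10 and 0.77. The genes Atp5g1, Atp5g2 and Atp5g3 encode the same mature ring protein, and differed by -0.43 (adjusted p = 0.13), -0.92 (adjusted p = 0.0803) and -0.35 (adjusted p = 0.0833). The other 5 members of complex V did not pass, with differences from -0.35 for Atp5mpl to -0.09 for Atp5e. Further probe sets of Atp5h, a peripheral stalk subunit, and of Atp5j2 differed by -0.74 and -0.59, and both passed as lower.

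Probe sets of one gene can lie at different distances from the 3′ end of its transcript, so they were compared, with each probe set tested among all 20380 (10.7% lower, 9.16% higher). Several probe sets were available for 46 members: those of 28 members all lay below zero, those of 3 all above and those of 15 on both sides, and 0 had probe sets called in opposite directions. The 74 probe sets not used for the gene values had a median difference of -0.34, with 20 lower and 2 higher. Sizes could differ widely between probe sets of a gene, as for Ndufc2, at -0.29 on its brightest probe set and -1.79 on the other. By the calls per gene, members read by a probe set with the plain suffix (35) had a median of -0.53, with 12 lower and 1 higher. Those read by an a-type set (31), which matches several transcripts of a gene, had a median of -0.15, with 6 lower and 2 higher. The 13 s-type sets, which can match several genes of a family, had a median of -0.29, with 3 lower and 2 higher. The 7 x-type sets, which can bind unrelated transcripts, had a median of 0.02, with 0 lower and 0 higher.

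Genes that regulate the chain or work beside it were read from lists. Of 21 measured genes for expression of the mitochondrial genome and its nuclear regulators, 8 fell and 4 rose, with a median difference of -0.28. These were 38.1% and 19.0%, against 12.3% lower and 11.3% higher over all genes. Tfam, which packages mitochondrial DNA and starts its transcription, read 8.53, 7.59 and 7.55 in PiZ, against 9.42, 9.29 and 9.43 in wild-type. The difference was -1.50 (SE 0.25, adjusted p = 0.00733), and all PiZ arrays were below wild-type. Gabpa, the DNA-binding part of the factor whose letters were searched above, read 8.67, 7.79 and 7.96 in PiZ, against 9.56, 9.33 and 9.69 in wild-type. It fell by 1.39 on the log2 scale (SE 0.23, adjusted p = 0.00707), whereas its other probe set differed by -0.15 and did not pass. Yy1 read 9.57, 9.48 and 9.46 in PiZ, against 10.42, 10.50 and 10.59 in wild-type, a difference of -1.002 (SE 0.11, adjusted p = 0.00141). Its PiZ arrays were even, but its 4 probe sets disagreed, from -1.002 to 0.47. Those at the 2 ends passed in opposite directions, and another passed as lower at -0.73. Polg, the mitochondrial DNA polymerase, fell by 0.71 (SE 0.12, adjusted p = 0.0077). Its other probe sets differed by -0.08 and 0.22 and did not pass.

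The coactivator Ppargc1a, which drives many respiratory genes, was on the other side. It read 8.32, 7.79 and 8.68 in PiZ, against 7.28, 7.67 and 7.43 in wild-type, a rise of 0.80 (SE 0.23, adjusted p = 0.0394). PiZ replicate 2 lay just above the wild-type range, and the 5 probe sets of Ppargc1a ran from -0.29 to 0.80, with the other 4 not past the test. The matrix proteases Clpp and Lonp1 rose by 1.02 (SE 0.19, adjusted p = 0.0108) and 0.86 (SE 0.11, adjusted p = 0.00305), although the second probe set of Clpp differed by 0.06. Nrf1 differed by 0.28 (SE 0.20, adjusted p = 0.329) and Esrra, the ERRA gene, by -0.28 (SE 0.14, adjusted p = 0.178).

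**Figure D4:**
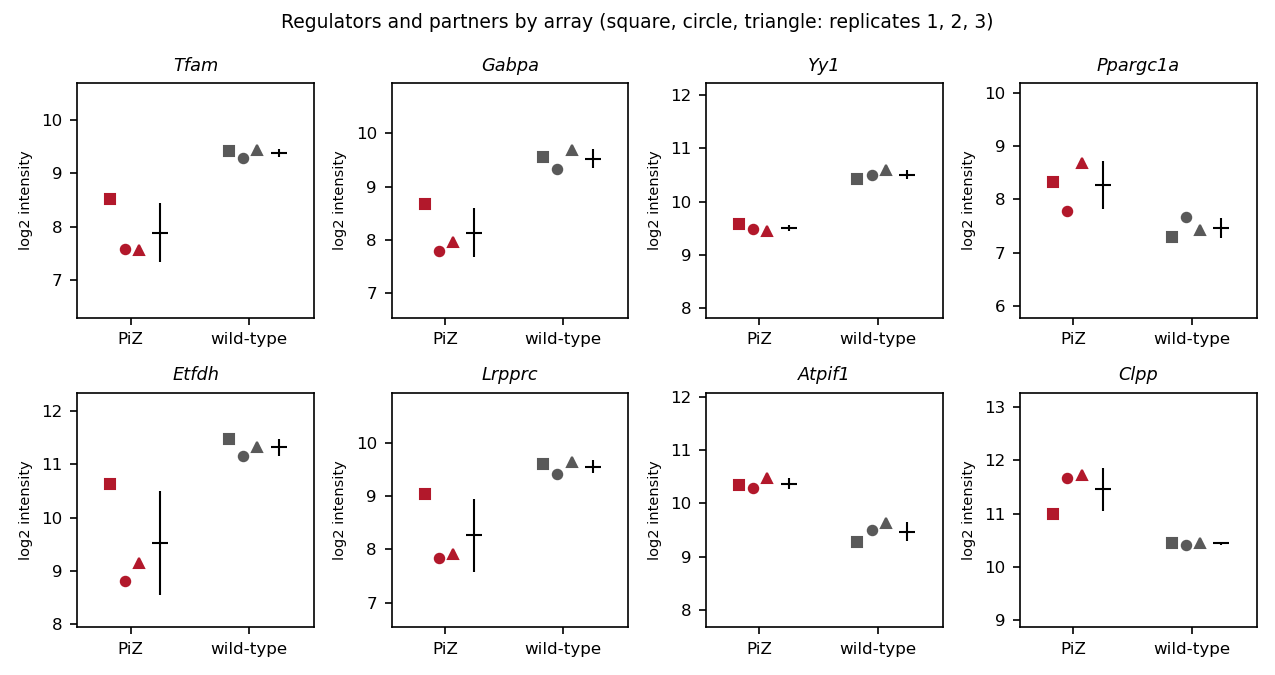
Log2 intensity (y axis) of 8 regulators and partners of the chain in each array, PiZ left and wild-type right, with squares, circles and triangles for replicates 1, 2 and 3 and a bar for the mean and SD. In each panel the PiZ points lie wholly above or wholly below the wild-type ones, with Tfam at 8.53, 7.59 and 7.55 in PiZ.

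Gabpa and Atp5j are neighbours. They lie head to head on chromosome 16, with starts 148 bases apart, so the 2 promoter windows share 247 bases, and the stretch shown for Atp5j lies between the starts. Both genes fell in PiZ, by 1.39 for Gabpa and 0.76 for Atp5j on the log2 scale.

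Of 35 measured assembly factors outside the Nduf names, 5 fell and 5 rose, with a median of -0.18. That was 14.3% in each direction, near the 12.3% lower and 11.3% higher of all genes. Lrpprc, which stabilises mitochondrial messenger RNAs, differed by -1.29 (SE 0.30, adjusted p = 0.0219). Sdhaf4, which helps to mature the flavoprotein of complex II, differed by -1.09 (SE 0.30, adjusted p = 0.0358), and Tmem70, needed for ATP synthase assembly, by -1.06 (SE 0.25, adjusted p = 0.0231). Dmac1 and Higd2a also fell, by 0.66 and 0.72. Atpif1, which blocks ATP hydrolysis by complex V and is an inhibitor and not an assembly factor, rose. It read 10.35, 10.28 and 10.47 in PiZ, against 9.27, 9.51 and 9.63 in wild-type, a difference of 0.90 (SE 0.13, adjusted p = 0.00417), while its other probe set differed by 0.18. The copper chaperones Cox17 and Cox19 rose by 0.50 and 0.66, while the other probe set of Cox17 differed by 0.19 and did not pass.

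Of 20 measured genes for coenzyme Q synthesis and other electron inputs, 3 fell and 4 rose, with a median of -0.15. That was 15% and 20%, against 12.3% lower and 11.3% higher of all genes. Etfdh, which passes electrons from fatty acid and amino acid oxidation to coenzyme Q, read 10.63, 8.80 and 9.15 in PiZ, against 11.48, 11.16 and 11.32 in wild-type. It differed by -1.79 (SE 0.42, adjusted p = 0.0224), with PiZ replicate 1 nearest to wild-type. Its electron donor Etfa differed by -1.22 (SE 0.25, adjusted p = 0.014). Prodh, proline dehydrogenase, rose by 0.83 (SE 0.24, adjusted p = 0.0428). Aox1 rose by 0.90 (SE 0.20, adjusted p = 0.0187), but it is a cytosolic aldehyde oxidase that does not feed the chain.

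Markers of other liver cells were read beside these genes. Of 6 Kupffer cell and macrophage markers 3 rose and 0 fell, with mean levels of 9.10 to 9.38 in PiZ and 8.80 to 8.95 in wild-type. Of 4 measured neutrophil markers 2 rose and 0 fell, with mean levels of 6.12 to 6.40 in PiZ and 4.73 to 5.18 in wild-type. Over all genes 11.3% were higher and 12.3% lower. None of the 5 hepatocyte, 5 lymphocyte, 6 endothelial, 7 stellate cell, 4 cholangiocyte or 3 erythroid markers passed by limma, with 2, 0, 1, 1, 2 and 0 of them at an unadjusted p under 0.05. The part of other cells in the lower respiratory chain values was not tested.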

How the data were processed

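Livers of 3 PiZ and 3 wild-type mice were measured on 1 array each. Per probe set, the authors deposited log2 intensities that the submitters' processing notes credit to affy and RMA. RMA corrects background and equalises the arrays, which takes out any shift common to most genes. The sources used here give no tool versions or filters. The labels call the samples biological replicates. Values ran from 2.3 to 14.98, and the files held no detection calls. Of 22690 probe sets, 20380 named 1 gene in the platform annotation, 691 named several and 1555 named none, and 64 were controls. Only the first kind was used. The brightest single-gene probe set by the mean of all arrays stood for each of 12393 genes.

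The test of PiZ against wild-type was limma's (version 3.58.1, R 4.3.3; lmFit, eBayes, two-sided, no covariate), with Benjamini-Hochberg adjustment over all genes. Python 3.11.15 with pandas 2.3.3 made the tables, and matplotlib 3.10.9 drew the figures. The members and lists were chosen with earlier results of these data known. Named genes were, per complex, up to 3 rises and 3 falls past the threshold, core subunits, isoform pairs, up to 4 genes a list and fixed regulators (61 genes). A further 13, Cox5a, Ndufa6, Atp5c1 and Polg among them, were named after their values were seen, as were Uqcr10, Uqcrq and members at the ends of ranges. Tested on simulated data with 12393 genes and 200 changed, the fit recovered 86% of changes of 1 and 51% of changes of 0.5 on the log2 scale, with 8 false among 145 calls. The simulation gave all arrays the wild-type spread and no shared array effect. It therefore does not cover the wider spread among the PiZ arrays, and its rates may not hold for this comparison. Alternatives changed probe set choice, dim gene filter, scaling, variance model, array weights, threshold, RNA quality covariate and replicate block, and left out arrays. The number of arrays limits the precision. Promoter windows came from RefSeq.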

Additional observations from a re-analysis of the deposited data

How the results depend on the processing

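Of 74 named genes 45 had passed, and these kept their sign under the 16 or 17 alternatives run for each. Cox7a1, Tfam, Gabpa, Lonp1 and Atpif1 stayed past the threshold under each alternative run for them. Across all 1249 values of named genes, 893 kept direction and side of the threshold, 261 no longer passed, 44 newly passed and 51 turned sign, the last only among genes that had not passed. Members higher, 5 as reported, numbered 0 with the 3′ to 5′ covariate, with PiZ replicate 1 alone and at an adjusted p of 0.01, 10 with array weights, 2 after centring on reference genes and with the mean of probe sets, 3 without x or s suffixes and with the replicate block, and 0 to 10 when 1 array was left out. Members lower, 21 as reported, numbered 3 with the covariate, 7 with PiZ replicate 1 alone, 51 with array weights, 1 at 0.01 and 1 to 51 when 1 array was left out. The replicate block gave 28 lower. Over all genes 1738 were lower with the block, 2879 with array weights and 947 with the covariate. Deviations of same-numbered arrays from their group means correlated at 0.26, 0.29 and -0.03. With so few arrays a group, these values cannot show whether replicate numbers pair the samples.

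With the covariate, the medians of complexes I, II, III and V and of the Nduf assembly factors were -0.11, -0.20, -0.20, -0.17 and -0.066, and with PiZ replicate 1 alone -0.12, -0.21, -0.20, -0.18 and -0.075. Centring on 5 reference genes, which lifted the median of all genes by 0.16 and the share of higher among called genes to 57.9% from 47.8%, gave -0.050, -0.14 and -0.26 for complexes I, III and V. Cyclic loess gave -0.087, -0.18 and -0.30, and a further quantile normalization -0.10, -0.20 and -0.32. Complex V was at -0.55 with array weights and -0.59 without x or s suffixes. Leaving out 1 array gave -0.29 to -0.14 for complex I, -0.40 to -0.29 for III, -0.13 to 0.000705 for IV and -0.56 to -0.28 for V. The complex IV median turned to 0.11 after centring on reference genes. The cause of these moves was not tested. Without dim genes the share of higher calls was 41.3% and by cyclic loess 50.1%.

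Differences that turned sign, none past the threshold before, were these. With the covariate, Atp5g1 read 0.020, Cox6a1 0.046, Cox6b1 -0.083, Cox8a 0.037, Cox8b -0.15, Ndufs8 -0.045, Ndufv1 -0.12, Ndufv2 -0.16, Nrf1 -0.22 and Sdha 0.018. With PiZ replicate 1 alone, Cox6a1 read 0.043, Cox6b1 -0.057, Cox8a 0.0017, Cox8b -0.13, Ndufs8 -0.031, Ndufv1 -0.12, Ndufv2 -0.13 and Nrf1 -0.20. After centring on reference genes, Cox6a1 read 0.13, Cox6b2 0.091, Cox7a2l 0.083, Uqcrb 0.090 and Uqcrc2 0.013. By cyclic loess, Cox6a1 read 0.085, Cox7a2l 0.045, Cox8b -0.093 and Uqcrb 0.045. After a further quantile normalization, Cox7a2l read 0.043, Cox8b -0.081 and Uqcrb 0.0037. With the mean of probe sets, Cox6b1 read -0.36, Cox7a2 -0.20, Ndufs8 -0.20, Ndufv1 -0.20, Ndufv2 -0.14 and Nrf1 -0.0099. Without x or s suffixes, Ndufs8 read -0.50 and Ndufv1 -0.0070. Leaving out 1 array, Cox6b1 ran from -0.016 to 0.069, Cox6b2 from -0.22 to 0.023, Cox7a2 from -0.078 to 0.11, Cox7a2l from -0.15 to 0.0070, Cox8b from -0.052 to 0.13 and Ndufv1 from -0.027 to 0.084.

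Dim genes have no detection call, so signal over background is unknown. In the simulation, which gave PiZ arrays the wild-type spread, 51% of changes of 0.5 were called. PiZ replicates 2 and 3 carry the wide 3′ to 5′ gap, so sizes of difference that rest on them are uncertain.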
